A study of Mus musculus with 24 samples.

Results

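The response of the ventral suprachiasmatic nucleus (SCN) to a light pulse was compared with that of the dorsal SCN, gene by gene. The quantity tested was a difference of differences on the log2 scale, pulsed minus sham in the ventral SCN less pulsed minus sham in the dorsal SCN, so that a value above 0 means a more positive light response in the ventral SCN. The members were the 16 of the study's 24 arrays that hold ventral or dorsal tissue, 4 arrays in each of 4 groups, chosen by their labelled region and treatment. The other 8 arrays hold central SCN tissue. They took no part in the fit, but counted in the choice of a probe set for each gene and in the filter on low values, and were also read separately. All mice were C57BL/6, bought at 8 weeks of age and housed singly, and were kept in constant dim red light for at least 7 days. The labels title the light as phase advancing. Pulsed mice received light for 30 min, Shammed mice a sham treatment of the same length, and all were killed 3.5 h later. The regions were cut by laser from haematoxylin-stained brain sections, so each array holds every cell of the excised area, and fewer cells of a type cannot be told apart from less RNA per cell. The labels do not say how many animals an array holds or which arrays share an animal, so the p-values measure only the spread between these samples.

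The SCN is the master circadian clock of mammals. Light reaches it through the retinohypothalamic tract, whose terminals release glutamate and PACAP mainly onto the ventral, or core, neurons, whose peptides include VIP (gene Vip) and gastrin-releasing peptide (gene Grp). Calcium and MAP kinase signalling then act on the transcription factor CREB, which induces Fos, Per1 and other genes, and the core neurons pass the signal to the dorsal, or shell, neurons, which make vasopressin (Avp).

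The defining peptides differed between the regions on the sham arrays. Vip was higher in the ventral than in the dorsal SCN by 3.97 on the log2 scale (limma adjusted p = 9.30e-05) and Grp by 2.14 (adjusted p = 1.09e-05), whereas Avp was lower by a log2 difference of -1.42 (adjusted p = 0.0401). The full list of 14 core markers was less uniform, with 7 higher in the ventral SCN and a median difference of -0.19. Array medians lay between 3.52 and 3.62 in amplification batch A and between 4.82 and 5.07 in batch B, with replicates 1 and 2 of each group in batch A and replicates 3 and 4 in batch B. The fit therefore had the batch as a term, and values of different batches are not on the same scale. One array stood apart. The signal of Gapdh at its 3′ end exceeded that at its 5′ end, a sign of RNA quality, by 5.41 on Pulsed dorsal 4 and by 0.887 to 1.02 on the other 7 arrays of its batch, and by 2.02 to 3.28 in batch A. Its median correlation with the arrays of its batch was 0.875, against 0.980 to 0.985 for the others. The main results are also given without Pulsed dorsal 4.

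A single gene of the 13494 tested passed the test of the difference, which is 0.00741% of them. It was Tinf2, which encodes a subunit of shelterin, the protein complex that caps telomeres. The response to light was more positive in the ventral than in the dorsal SCN. Without Pulsed dorsal 4, 2 genes passed (0.0148%), Tinf2 and Ehd3, an ATPase of endosomal membrane recycling. The median standard error of the difference was 0.28 with all 16 arrays and 0.21 without that array. The median 95% interval reached 0.60 to either side of the estimate. That interval is not adjusted for the 13494 genes tested. For a typical gene a difference of that size, and larger ones too, could therefore not be called with 4 arrays a group. Ehd3, at 1.37 ± 0.21, missed the threshold with all arrays (limma adjusted p = 0.0731). At an unadjusted p under 0.05 there were 640 genes, or 4.74% of those tested, of which 260 had a positive and 380 a negative difference. Without Pulsed dorsal 4 there were 1031 (7.64%), of which 497, or 3.68% of those tested, were positive.

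Tinf2 measured 4.50 and 4.31 on the sham ventral arrays and 6.56 and 7.01 on the pulsed ventral arrays of batch A, and 5.69 and 6.06 against 8.09 and 8.31 in batch B. In the dorsal SCN it measured 4.68 and 4.95 on sham and 5.90 and 5.55 on pulsed arrays of batch A, and 6.63 and 6.94 against 7.20 and 6.85 in batch B. Within each batch the pulsed ventral arrays were the highest and the sham ventral arrays the lowest, and pulsed and sham dorsal arrays overlapped in batch B. Light raised Tinf2 in the ventral SCN by 2.36 ± 0.19 (log2, SE; adjusted p = 2.07e-05), whereas the dorsal estimate was 0.58 ± 0.19 and did not pass (adjusted p = 0.534). The difference was 1.78 ± 0.24 with a 95% interval from 1.26 to 2.29 (adjusted p = 0.0319). It was 1.47 in batch A and 2.09 in batch B, and 1.67 without Pulsed dorsal 4 (adjusted p = 0.00951). The call rested on the block that ties arrays of the same replicate number, which the data did not show to be pairs: the adjusted p was 0.0859 with no replicate block, 0.0586 with the number alone as the block and 0.457 with a fixed block. A second Tinf2 probe set, with a mean log2 value of 3.84, gave a difference of 0.27. Tinf2 passed in 12 of the 33 alternative fits. Leaving out any 1 of the 16 arrays kept the estimate between 1.66 and 1.91, and Tinf2 passed in 4 of these 16 fits, those without Pulsed dorsal 1, Pulsed dorsal 4, Pulsed ventral 4 or Shammed dorsal 1. In the fits without 1 of the other 12 arrays the adjusted p ran from 0.0530 to 0.168.

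Ehd3 gave the second smallest p. It measured 7.17 and 7.18 on sham and 8.49 and 8.54 on pulsed ventral arrays of batch A, and 9.06 and 9.11 against 10.65 and 10.47 in batch B. The dorsal values were 6.93 and 6.94 on sham and 7.38 and 7.02 on pulsed arrays in batch A, and 9.29 and 9.25 against 9.45 and 8.72 in batch B. Only the pulsed ventral arrays stood above the rest of their batch. The ventral response was 1.41 ± 0.17 (adjusted p = 7.36e-04) and the dorsal 0.04 ± 0.17 (adjusted p = 0.934). The difference of 1.37 ± 0.21 missed the threshold with all arrays (adjusted p = 0.0731) and passed without Pulsed dorsal 4, at 1.22 ± 0.16 (adjusted p = 0.00951), and without Pulsed ventral 4 (adjusted p = 0.0156). A second Ehd3 probe set gave 1.02.

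**Figure D1:**
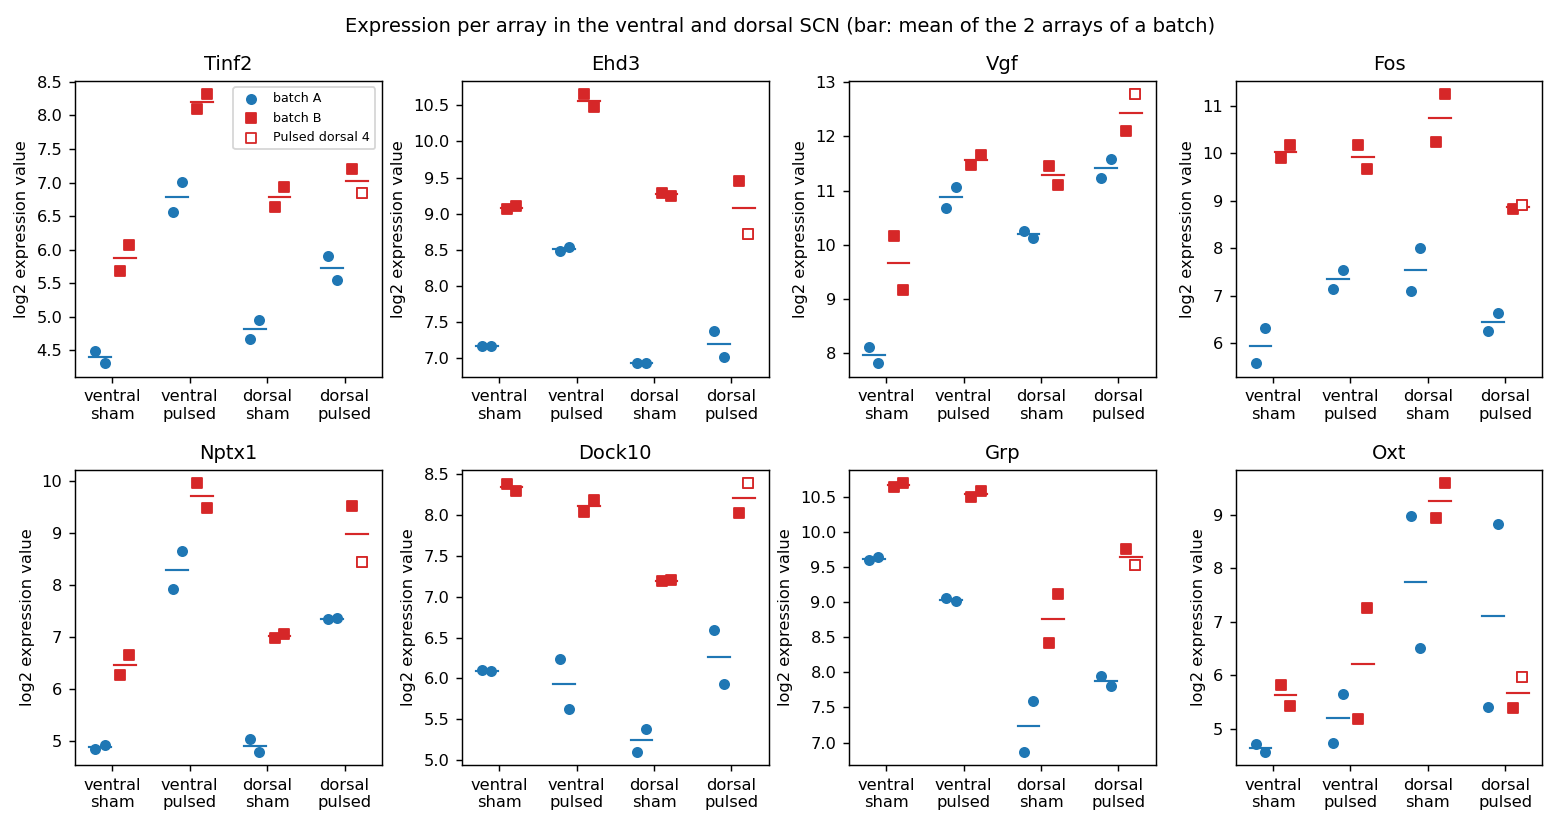
Log2 expression value on each of the 16 arrays for Tinf2, Ehd3, Vgf, Fos, Nptx1, Dock10, Grp and Oxt, by region and treatment (horizontal axis), with circles for batch A, squares for batch B, an open square for Pulsed dorsal 4 and a bar at the mean of the 2 arrays of a batch. Tinf2 and Ehd3 are highest on the pulsed ventral arrays of each batch, and the pulsed dorsal values of Fos lie below the sham dorsal values in both batches.

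The 250 bases before the transcription start of Tinf2, Ehd3, Fos and Fosb are given because Tinf2 and Ehd3 led the difference and the other two are the textbook targets of light-activated CREB. They come from RefSeq on the GRCm38.p6 build and are written 5′ to 3′ on the gene's strand. Capitals mark the CREB-binding motif TGACGTCA, which reads the same on both strands, and its first 5 letters, TGACG, on either strand, which overlap in a full match. Tinf2 lies at chr14:55681818-55682067 on the minus strand and holds 1 full match. Fos, at chr12:85473640-85473889 on the plus strand, holds 2 matches to TGACG, Fosb, at chr7:19310046-19310295 on the minus strand, holds 1, and Ehd3, at chr17:73804591-73804840 on the plus strand, holds none.
Tinf2: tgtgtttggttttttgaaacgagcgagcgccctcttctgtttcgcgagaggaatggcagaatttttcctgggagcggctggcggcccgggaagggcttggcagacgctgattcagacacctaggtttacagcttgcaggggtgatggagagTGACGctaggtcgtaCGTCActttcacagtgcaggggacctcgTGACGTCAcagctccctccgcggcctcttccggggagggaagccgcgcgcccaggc
Fos: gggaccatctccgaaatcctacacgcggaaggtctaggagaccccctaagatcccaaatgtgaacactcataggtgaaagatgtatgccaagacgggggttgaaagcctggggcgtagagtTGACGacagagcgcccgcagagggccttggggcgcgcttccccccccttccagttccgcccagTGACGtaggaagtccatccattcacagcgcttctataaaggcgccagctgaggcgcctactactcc
Fosb: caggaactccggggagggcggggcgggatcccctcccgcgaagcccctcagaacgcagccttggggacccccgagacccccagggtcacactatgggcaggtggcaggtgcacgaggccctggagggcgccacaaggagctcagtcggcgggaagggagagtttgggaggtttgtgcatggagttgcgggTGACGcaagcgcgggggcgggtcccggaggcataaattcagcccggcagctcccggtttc
Ehd3: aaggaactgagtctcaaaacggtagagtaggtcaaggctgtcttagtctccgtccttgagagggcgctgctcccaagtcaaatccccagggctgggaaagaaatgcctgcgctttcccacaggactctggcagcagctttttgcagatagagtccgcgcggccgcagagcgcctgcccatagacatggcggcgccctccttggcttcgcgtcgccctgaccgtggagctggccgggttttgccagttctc
TGACGTCA occurs in 1.55% of all 32851 RefSeq starts and in 2.45% of the 13957 starts of genes tested, and TGACG in 17.8% and 25.2% of them. A match describes these letters only.

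Immediate early genes, the transcription factors and other genes that neurons switch on first after a stimulus, had a positive difference in 16 of the 22 tested, with a median of 0.35, while 50.5% of all genes tested were positive with a median of 0.00. None passed after adjustment. At an unadjusted p under 0.05, 7 of the 22 were positive and 0 negative, beside 1.93% and 2.82% of all genes. Without Pulsed dorsal 4, 7 were positive and 1 negative, beside 3.68% and 3.96% of all genes. The list had 17 of 22 positive in batch A (all genes 44.1%), 17 of 22 in batch B (all genes 51.3%) and 16 of 22 without Pulsed dorsal 4 (all genes 46.1%), with medians of 0.21, 0.49 and 0.38.

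Fos, the activity marker of the SCN, had the smallest p of this list. It measured 5.58 and 6.32 on sham and 7.14 and 7.54 on pulsed ventral arrays in batch A, and 9.90 and 10.17 against 10.18 and 9.66 in batch B. In the dorsal SCN it measured 7.10 and 7.995 on sham and 6.25 and 6.63 on pulsed arrays in batch A, and 10.24 and 11.24 against 8.83 and 8.91 in batch B. The pulsed dorsal arrays thus lay below the sham dorsal arrays in both batches, and the ventral arrays were separated by treatment in batch A only. The ventral response was 0.64 ± 0.33 and the dorsal -1.49 ± 0.33, neither past the threshold (adjusted p = 0.853 and 0.158). The difference was 2.13 ± 0.41 (limma adjusted p = 0.388). The difference was 2.09 without Pulsed dorsal 4 (adjusted p = 0.132) and passed without Pulsed ventral 4, at 2.24 (adjusted p = 0.0156).

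The mean level of markers of neighbouring hypothalamic neurons was also lower on pulsed than on sham dorsal arrays. Of 18 such genes listed, 9 were tested. Their mean log2 level with batch removed ran from 6.05 to 6.22 on sham dorsal and from 5.15 to 6.04 on pulsed dorsal arrays. These ranges did not overlap, by a narrow margin, and the level on all ventral arrays ran from 4.74 to 5.27. The drop was not particular to this list. The mean of 16 general neuron genes ran from 8.88 to 9.13 on sham and from 8.60 to 8.85 on pulsed dorsal arrays. On ventral arrays it ran from 8.43 to 8.55 on sham and from 8.17 to 8.45 on pulsed arrays. Oxt, the oxytocin precursor of the paraventricular and supraoptic nuclei, measured 8.98, 6.51, 8.95 and 9.60 on sham dorsal and 5.40, 8.83, 5.38 and 5.97 on pulsed dorsal arrays, in replicate order. Its difference in light response was 2.69 ± 0.96 and that of the thyrotropin-releasing hormone gene Trh 1.37 ± 0.54 (adjusted p = 0.848 for each). The list was not uniform: 6 of the 9 had a positive difference, the median dorsal response was -0.10, and somatostatin, Sst, had a difference of -1.35 with a dorsal estimate of 0.55. In batch A, Pulsed dorsal 2 had an Oxt value of 8.83 with Fos at 6.63, and Shammed dorsal 2 an Oxt value of 6.51 with Fos at 7.995. In batch B the dorsal arrays had the same order for both genes, with Fos at 10.24 and 11.24 on sham and 8.83 and 8.91 on pulsed arrays. The part of tissue beside the SCN in the difference of Fos was not tested.

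Fosb, the close relative of Fos, was above the array median on 8 of the 16 arrays. It measured 3.19 and 3.45 on sham and 4.00 and 4.71 on pulsed ventral arrays of batch A, and 3.83 and 3.98 against 7.88 and 7.45 in batch B. Its dorsal values were 2.93 and 3.69 against 3.06 and 3.96 in batch A and 4.68 and 5.61 against 5.72 and 4.32 in batch B. The pulsed ventral arrays were the highest of each batch, by a wide margin in batch B. Light raised Fosb in the ventral SCN by 2.40 ± 0.48 (adjusted p = 0.0362), the dorsal estimate was 0.04 ± 0.48, and the difference of 2.36 ± 0.60 did not pass (adjusted p = 0.782). It was 0.83 in batch A and 3.88 in batch B. The orphan nuclear receptor gene Nr4a3 had a difference of 1.96 ± 0.54, from a ventral estimate of 1.07 and a dorsal of -0.89, that did not pass either (adjusted p = 0.782). Without Pulsed dorsal 4 the difference was 1.52 and the dorsal estimate -0.45. Egr3, a zinc-finger factor, responded in both regions, by 3.15 in the ventral (adjusted p = 0.00630) and 2.64 in the dorsal SCN (adjusted p = 0.0442), and the difference of 0.51 had an interval from -0.75 to 1.77, and was 0.82 without Pulsed dorsal 4. A second, weaker Egr3 probe set gave -0.20.

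Later activity-dependent genes, many of them regulated by CREB, were positive in 18 of the 25 tested, with a median of 0.50, which was 0.33 in batch A, 0.57 in batch B and 0.18 without Pulsed dorsal 4. None passed, and 6 were positive and 0 negative at an unadjusted p under 0.05, beside 1.93% and 2.82% of all genes. Without Pulsed dorsal 4, 8 were positive and 2 negative, beside 3.68% and 3.96% of all genes. Nptx1, a neuronal pentraxin that gathers glutamate receptors at synapses, rose in both regions, by 3.33 ± 0.23 in the ventral (adjusted p = 4.55e-06) and 2.2 ± 0.23 in the dorsal SCN (adjusted p = 0.00134). In batch A it went from 4.85 and 4.93 to 7.93 and 8.66 in the ventral SCN and from 5.04 and 4.80 to 7.36 and 7.37 in the dorsal SCN. In batch B it went from 6.28 and 6.67 to 9.96 and 9.48 and from 6.995 and 7.07 to 9.52 and 8.45. The groups of sham and pulsed arrays did not overlap in either region of a batch. The difference of 1.13 ± 0.29 did not pass (adjusted p = 0.782), and a second, weaker probe set gave 0.60.

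Vgf, a granule protein precursor of neuropeptides, started from a lower sham level in the ventral than in the dorsal SCN, by a log2 difference of -1.92 (adjusted p = 1.10e-04), which was -0.70 on the pulsed arrays (adjusted p = 0.118). It measured 8.13 and 7.82 on sham and 10.68 and 11.07 on pulsed ventral arrays of batch A, and 10.16 and 9.18 against 11.48 and 11.66 in batch B. The dorsal values were 10.26 and 10.13 against 11.24 and 11.59 in batch A and 11.45 and 11.11 against 12.09 and 12.77 in batch B. Pulsed arrays were above sham arrays in both regions and batches, and every ventral sham array was below every dorsal sham array of its batch. The ventral response was 2.40 ± 0.24 (adjusted p = 1.84e-04) and the dorsal 1.18 ± 0.24 (adjusted p = 0.110). Their difference was 1.22 ± 0.31 (adjusted p = 0.782), and 1.34 without Pulsed dorsal 4 (adjusted p = 0.140). Crem, whose ICER product represses CREB targets, had a ventral response of 2.43 (adjusted p = 2.87e-04) and a dorsal of 1.30 (adjusted p = 0.110), with a difference of 1.13 ± 0.33. Pcsk1, a convertase that cleaves peptide precursors, rose by 1.90 in the ventral SCN (adjusted p = 0.0119) and had a difference of 1.05 ± 0.40, which was 1.80 in batch A and 0.31 in batch B. Neither difference passed (adjusted p = 0.848 for each). The dorsal response of Crem passed once Pulsed dorsal 4 was left out, at 1.44 (adjusted p = 0.0321). Of 3 weaker Crem probe sets, the brightest gave a difference of 0.90 and the others -0.03 and -0.07.

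MAP kinase feedback inhibitors include the Dusp phosphatases and the Spry and Spred proteins. With all arrays the 14 tested had a positive difference, with a median of 0.44 and none past the threshold. The median was -0.10 in batch A, with 5 of 14 positive, and 0.06 without Pulsed dorsal 4, with 8 of 14 positive. Dusp4 had a difference of 1.01 ± 0.44, which was 1.57 in batch A and 0.46 in batch B, and Spry2 one of 0.50 ± 0.16 (adjusted p = 0.848 for each). Genes of gp130 and STAT cytokine signalling were positive in 15 of 18, with a median of 0.29, and in 12 of 18 without Pulsed dorsal 4, with a median of 0.33. Of these, the feedback inhibitor Socs3 rose in the ventral SCN by 2.98 (adjusted p = 0.0305), where the dorsal estimate was 1.75 (adjusted p = 0.521). Its difference went from 1.23 ± 0.72 with all arrays to 1.97 ± 0.43 without Pulsed dorsal 4 (adjusted p = 0.848 and 0.191). Osmr, the oncostatin M receptor, had a difference of 0.99, and 1.32 without Pulsed dorsal 4 (adjusted p = 0.848 and 0.132).

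Core clock genes lay on both sides of 0, with 10 of 22 positive and a median of -0.05, and 7 of 22 with a median of -0.18 without Pulsed dorsal 4. Per2, a clock repressor that light induces, rose by 2.19 ± 0.27 in the ventral SCN (adjusted p = 7.92e-04), and its dorsal estimate was 1.27 ± 0.27 (adjusted p = 0.113). The difference of 0.91 ± 0.34 did not pass (adjusted p = 0.848) and differed between batches, at 0.05 in batch A and 1.78 in batch B. The other, weaker probe sets of Per2 gave -0.12 and -0.23. Its dorsal response passed when Pulsed dorsal 4 was omitted, at 1.45 (adjusted p = 0.0349). Per1 had a difference of 0.77 ± 0.55, and 0.18 without Pulsed dorsal 4. Arntl, the positive clock factor BMAL1, rose by 0.77 in the ventral SCN (adjusted p = 0.0340) and had a dorsal estimate of 0.65, with a difference of 0.12 and an interval from -0.28 to 0.52.

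Of 14 markers of the ventral core, many of them peptides, 4 had a positive difference, with a median of -0.12 and -0.11 without Pulsed dorsal 4, and none passed. Grp measured 9.60 and 9.64 on sham and 9.06 and 9.01 on pulsed ventral arrays of batch A, and 10.64 and 10.69 against 10.50 and 10.58 in batch B. In the dorsal SCN it went the other way, from 6.87 and 7.59 to 7.94 and 7.81 in batch A and from 8.42 and 9.11 to 9.76 and 9.52 in batch B. The pulsed arrays were below the sham arrays in the ventral and above them in the dorsal SCN in each batch, although neither response passed (-0.35 and 0.76, adjusted p = 0.915 and 0.309). The difference was -1.11 ± 0.25 (limma adjusted p = 0.645). Cartpt, a peptide precursor, had a difference of -1.49 and Vip one of -1.07 with an interval from -2.39 to 0.24, neither past the threshold. These were -1.05 and -0.77 without Pulsed dorsal 4. Avp, a shell marker, had a difference of -0.02 with an interval from -1.03 to 1.00. Leaving out Pulsed dorsal 4, this was -0.56 with an interval from -0.99 to -0.13, which did not pass (limma adjusted p = 0.508), and the dorsal response of Avp, 1.01, passed (adjusted p = 0.0262).

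The gene with the smallest p among negative differences was Dock10. It measured 6.10 and 6.10 on sham and 6.24 and 5.63 on pulsed ventral arrays of batch A, and 8.38 and 8.29 against 8.04 and 8.19 in batch B. Its dorsal values were 5.10 and 5.38 on sham and 6.59 and 5.93 on pulsed arrays of batch A, and 7.19 and 7.21 against 8.03 and 8.39 in batch B. Pulsed dorsal arrays exceeded sham dorsal arrays in both batches. A second Dock10 probe set, with a mean log2 value of 3.48, gave a ventral minus dorsal light response of -0.32. On sham arrays Dock10 was higher in the ventral than in the dorsal SCN by 1.00 (adjusted p = 0.00217), and on pulsed arrays this regional difference was -0.21 (adjusted p = 0.462). Light raised Dock10 in the dorsal SCN by 1.02 ± 0.17 (adjusted p = 0.0324), the ventral estimate was -0.19 ± 0.17, and the difference of -1.21 ± 0.22 did not pass (adjusted p = 0.239, and 0.0856 without Pulsed dorsal 4), except, of the alternatives run, without Pulsed ventral 4 (adjusted p = 0.0156) and with array weights (adjusted p = 0.0149). Plch1, a neuronal phospholipase C, fell by 0.77 in the ventral SCN and had a dorsal estimate of 0.19 (adjusted p = 0.0399 and 0.649), with a difference of -0.96. The differences of Plscr4, a phospholipid scramblase, Rnf152, a lysosomal ubiquitin ligase, Tafa1, a secreted neuronal protein, Trim24, a transcriptional cofactor, and Ovgp1, an oviduct glycoprotein, ran from -1.28 for Tafa1 to -0.89 for Rnf152. None of these passed (adjusted p between 0.388 and 0.665), and the other probe set of Plscr4 gave 0.13 and those of Trim24 0.16 and -0.42. Without Pulsed ventral 4, Tafa1 passed. With array weights, which called 69 genes, Plch1, Plscr4, Rnf152, Tafa1 and Trim24 passed and Ovgp1 did not. Of the genes described above, Tinf2, Ehd3, Fos, Fosb, Nr4a3, Vgf, Crem, Pcsk1, Socs3, Osmr, Oxt and Grp also passed in that fit. Egr3, Nptx1, Dusp4, Spry2, Per1, Per2, Arntl, Trh, Sst, Cartpt, Vip and Avp did not pass in it. On the positive side, Dsel, an enzyme of dermatan sulfate synthesis, had a difference of 0.99 ± 0.20 (adjusted p = 0.388), which passed only with array weights. Light lowered it in the dorsal SCN, with a response of -1.36 (adjusted p = 0.00260), and the ventral estimate was -0.37 (adjusted p = 0.713). B230216N24Rik had one of 1.10 ± 0.27 (adjusted p = 0.782), and its other probe set one of -0.10.

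**Figure D2:**
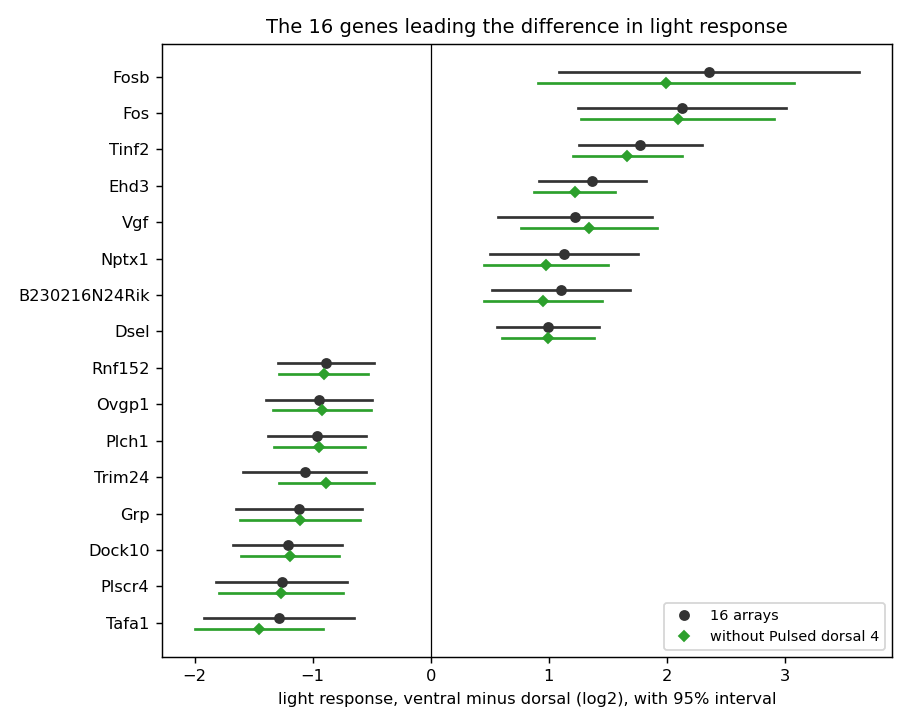
Ventral minus dorsal light response (log2) of the 8 positive and 8 negative genes with the smallest p among those of 1 sign in both batches, with the estimate as a point and its 95% interval as a line, from all 16 arrays (black circles) and without Pulsed dorsal 4 (green diamonds). Every interval leaves out 0 in both fits. In the first this follows from the choice by smallest p, and the second uses the same arrays save Pulsed dorsal 4. Only Tinf2 passed after adjustment over 13494 genes, and without that array only Tinf2 and Ehd3.

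Genes chosen on the light response averaged over both regions were then read for the difference. Such a gene need not respond in each region: Ehd3 passed on the average (limma adjusted p = 0.0162) with a dorsal estimate of 0.04. The light response averaged over the ventral and dorsal SCN passed upward for 57 genes (0.422%). In a balanced design with equal spread in both regions this average is uncorrelated with the difference, although both use the same 16 arrays. Equal spread was not shown here, since Pulsed dorsal 4 stood apart. Of the 57, 48 had a positive difference, with a median of 0.50, and their median response was 1.41 in the ventral and 0.90 in the dorsal SCN. The median difference was 0.49 in batch A, with 44 positive, and 0.43 in batch B, with 43 positive, and 37 of the 57 were positive in both batches, where 3018 of the 13494 genes tested were. Without Pulsed dorsal 4 the same 57 genes, chosen with that array, had a median of 0.42 with 48 positive. On sham arrays their median ventral minus dorsal difference in level was -0.07, with 24 of 57 higher in the ventral SCN, and on pulsed arrays it was 0.45, with 44 of 57. At an unadjusted p under 0.05, 20 were positive and 1 negative, beside 1.93% and 2.82% of all genes tested. The negative gene, named after its value was seen, was the adhesion gene Nectin3 at -0.73.

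Members differed in how far the regions parted. Besides Tinf2, the tropomyosin gene Tpm4 (0.72), the tRNA methyltransferase gene Trmt61b (0.78), the nuclear envelope gene Emd (0.73) and the stress-response gene Ddit4l (1.72 ± 0.45) had differences above the median, none past the threshold. By contrast the differences of Pdlim4, an actin-associated protein, and Il1rap, a subunit of the interleukin-1 receptor, were 0.00 and 0.01. Il1rap rose by 1.09 in the ventral and 1.08 in the dorsal SCN (adjusted p = 0.00865 and 0.0180), with an interval of the difference from -0.44 to 0.47, and 4 weaker probe sets gave -0.43 to 0.18. Pdlim4 rose by 2.10 in each (adjusted p = 0.0121 and 0.0324), but Pulsed dorsal 4 was its highest array at 8.70, and without that array the difference was 0.50. Of 17 genes lowered on average (0.126%), 7 had a positive difference, with a median of -0.09.

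**Figure D3:**
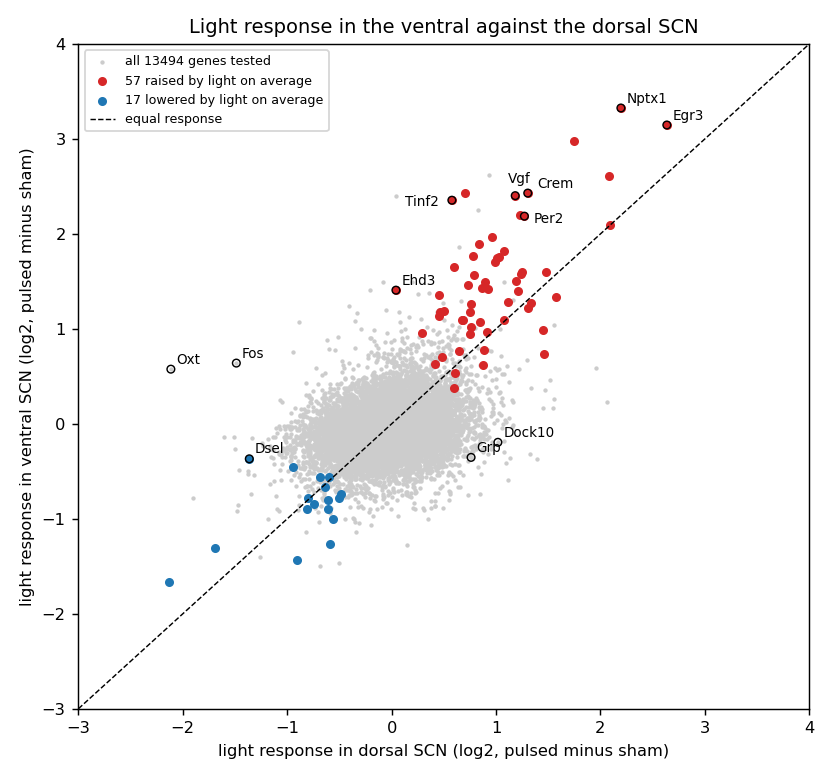
Light response (log2, pulsed minus sham) in the ventral SCN (vertical axis) against the dorsal SCN (horizontal axis) for the 13494 genes tested (grey), with the 57 genes raised on average in red and the 17 lowered on average in blue, and a dashed line where both responses are equal. Of the red points, 48 lie above the line, as do 50.5% of all genes tested.

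The batches gave largely different estimates for genes at large. Across the 13494 genes, which are not independent of each other, the estimates of batch A and batch B correlated with a Pearson r of 0.0289, and 49.3% had the same sign. Without Pulsed dorsal 4 the values were 0.147 and 53.5%. The standard deviation of the estimates across genes was 0.38 in batch A and 0.63 in batch B, and 0.39 in batch B without that array.

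**Figure D4:**
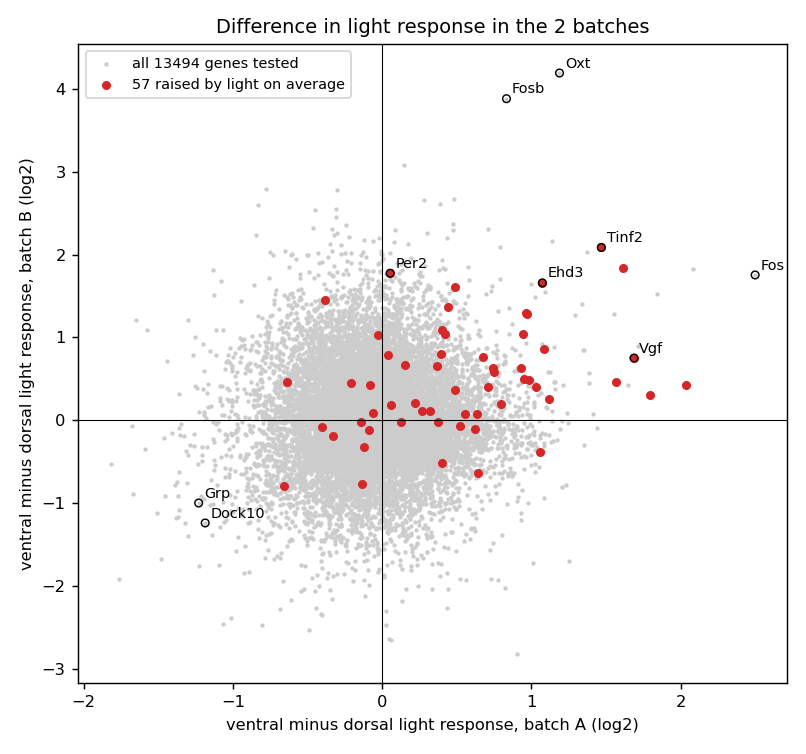
Ventral minus dorsal light response (log2) in batch B (vertical axis) against batch A (horizontal axis), each from 2 arrays a group, for the 13494 genes tested (grey) and the 57 genes raised on average (red), with names on genes described in the text. Tinf2, Ehd3, Fos, Fosb and Vgf lie in the quadrant positive in both batches and Dock10 and Grp in the negative one. The same sign in both batches was a condition of their choice as leading genes. Per2, not chosen that way, is at 0.05 in batch A.

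Central SCN arrays, which took no part in the fit, offered a list chosen on other arrays, although some may come from the same animals. Fitted alone, 18 genes were raised by light there (0.133%). Of these 18, 15 had a positive ventral minus dorsal difference, with a median of 0.46, and 16 with a median of 0.56 without Pulsed dorsal 4. The exceptions with all arrays included Erich6 at -1.36, named after its value was seen. Tinf2 was among the 18, with a central response of 1.18 ± 0.17 (adjusted p = 0.0411) that lay between its dorsal 0.58 and ventral 2.36. Nptx1 rose by 3.06 and Vgf by 2.02 in the central SCN (adjusted p = 9.33e-04 and 0.0411).

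Other cell types and housekeeping groups were read as background. Astrocyte genes were positive in 7 of 16 (median -0.01), oligodendrocyte genes in 4 of 17 (median -0.20), oxidative phosphorylation subunits in 17 of 35 (median -0.02) and potassium channels in 8 of 25 (median -0.17), with none past the threshold. Without Pulsed dorsal 4 the counts were 7, 4, 23 and 9 and the medians -0.08, -0.11, 0.08 and -0.15, so that of the oxidative phosphorylation subunits changed sign. The mean log2 level of oligodendrocyte genes was 7.33 to 8.05 on ventral and 6.54 to 7.06 on dorsal arrays, with no overlap between the regions at either treatment. Peptide processing and granule genes were positive in 10 of 15 (median 0.19) and glucocorticoid and stress-response genes in 11 of 16 (median 0.27).

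**Figure D5:**
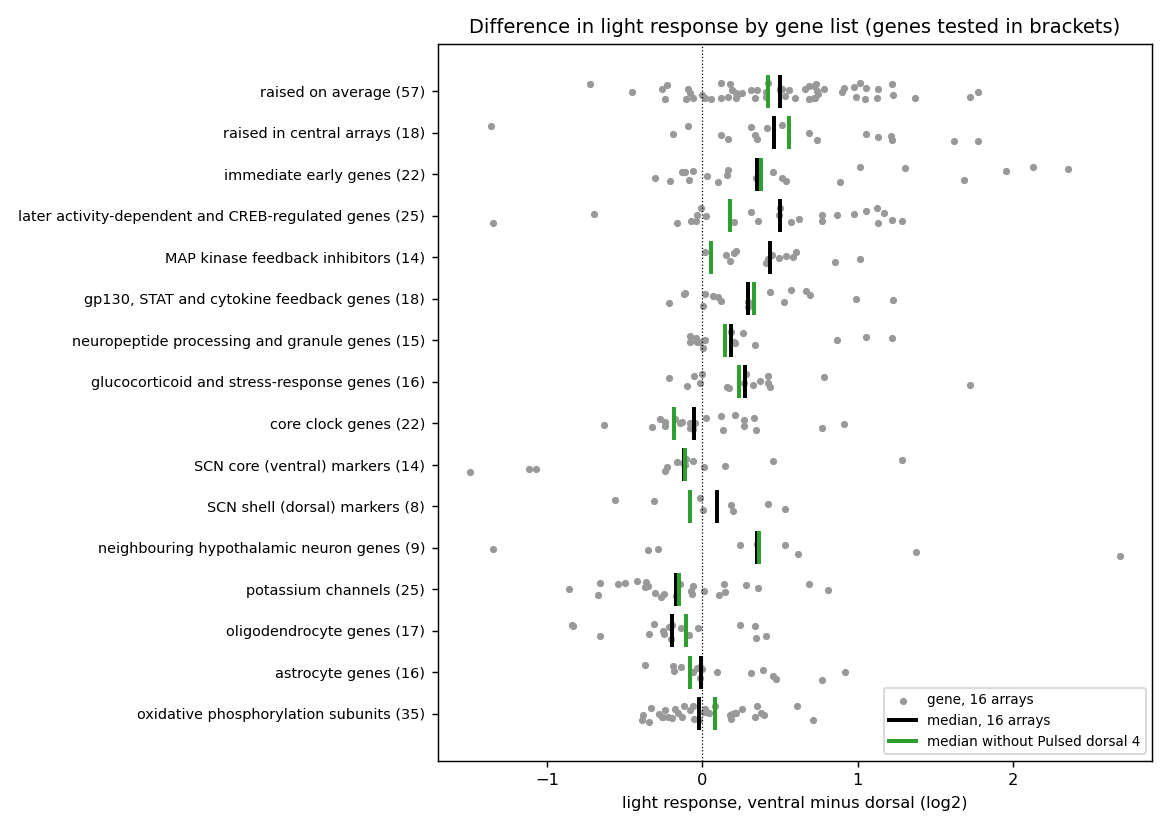
Ventral minus dorsal light response (log2) of each tested gene (grey points) of 16 gene lists, with the list's median over 16 arrays (black bar) and without Pulsed dorsal 4 (green bar), and the number of genes tested in brackets. The black bar of the MAP kinase feedback inhibitors is at 0.44 and the green bar at 0.06, while the genes raised on average stay at 0.50 and 0.42.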

How the data were processed

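The deposited table holds 1 log2 expression value per probe set and array, as the authors made them. Of software, the submitters' processing notes list MAS5, R 3.0.2 and GCRMA 2.32.0, with roles not given in the sources used here. The RNA was amplified and labelled in batches, per the labels' protocols. The table gives no depth, so precision rests on the number of arrays.

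Of 45101 probe sets, 34945 had 1 gene symbol in the platform annotation, 932 several and 9160 none, and 64 were controls. Each of 18193 genes was represented by its probe set of highest mean on the 24 arrays. Testing required a log2 value above 4 on 4 or more of the 24 arrays, which left out 4699 genes. The difference of differences was fitted in R 4.3.3 by limma 3.58.1 (functions lmFit and eBayes, two-sided, Benjamini-Hochberg adjustment over 13494 genes, called at an adjusted p under 0.05), with the batch as a term and arrays of the same treatment and replicate number as a random block (duplicateCorrelation, 0.211). The fit was tested on simulated data.

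The block assumes that a number pairs the ventral and dorsal arrays. Deviations of same-numbered arrays correlated between -0.227 and 0.478, over 0.1 in 5 of 8 pairs, so the numbers were not shown to pair them.

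Named genes were, in each direction, 8 of the same sign in both batches, with and without Pulsed dorsal 4. Genes called came first, then those with the smallest p. Also named were the 16 with the smallest p for the averaged response and 6 from the central arrays. A panel of clock and activity genes and up to 3 of each list completed them. The comparison, the lists and the named genes were chosen with earlier results of these data known. Other normalizations, filters, blocks, batch terms, array weights and array omissions were tried.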

Additional observations from a re-analysis of the deposited data

Results flagged for a closer look

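The difference in light response between the ventral and dorsal SCN passed for Tinf2, at 1.78 with all arrays, and for Ehd3, at 1.22 without Pulsed dorsal 4. In the central SCN arrays, which the comparison does not use, light raised Tinf2 by 1.18, Vgf by 2.02, Nptx1 by 3.06, Npnt, which encodes the matrix protein nephronectin, by 1.92, and Pcsk1 by 1.32 on the log2 scale.

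Single arrays stood far from the other 3 of their group in 12 of the 152 groups of 4 values examined, where chance gives about 1 in 20. Relative to the mean of its batch, Dsel was at -0.43 on Shammed ventral 1, the lowest of its group. Dock10 was at -0.50 on Shammed dorsal 2, the highest of its group. Plscr4 was at -0.48 on Pulsed ventral 3, Rfx4, a transcription factor gene, at -0.68 on Shammed ventral 3, S100a10, a calcium-binding protein gene, at -1.26 on Shammed dorsal 2 and Egr3 at -2.23 on Shammed dorsal 3, each the lowest of its group. Manba at -1.06 and Dcx at -1.53 were far lower on Pulsed dorsal 4 than on the other pulsed dorsal arrays. That array also stood apart in its Gapdh 3′ minus 5′ signal of 5.41 and its median correlation of 0.875. The Gapdh values of Shammed dorsal 1, at 3.28, and Shammed ventral 1, at 2.89, were far from the rest of their groups only relative to a batch mean that included Pulsed dorsal 4, and not relative to the mean of the other 7 arrays. Of the 8 gene values, 3 (Dock10, Dcx and S100a10) also stood apart on the same array relative to the batch median, an alternative chosen after seeing the data.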

How the results depend on the processing

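The count of genes called was 1, and the cause of other counts among the alternatives was not tested. Without Pulsed dorsal 1 or Shammed dorsal 1 it stayed at 1, Tinf2. The same held with no batch term and with a batch by region term. The count also stayed at 1, Tinf2, with no filter, a filter at log2 above 6 and a filter at the array median. It was 0 with no replicate block (401 genes at an unadjusted p under 0.05 by limma), 0 with a fixed replicate block (712), 0 with the number alone as the block (541), 0 in batch A alone (1273) and batch B alone (296), 0 with median-centred arrays (597), 0 with an intensity trend in eBayes (623) and 0 over every probe set (1107 of 25067). It was 2 with all 24 arrays and 2 after quantile normalization, Tinf2 and Ehd3 in each. With array weights it was 69 (39 positive, 30 negative), where Pulsed dorsal 4 had a weight of 0.0534. Leaving out 1 array gave 0 to 6 genes, 0 in 11 of 16 fits, 2 without Pulsed dorsal 4, 6 without Pulsed ventral 4 and, without Shammed ventral 3, Nr4a2 alone. Added after seeing the data, omitting Pulsed dorsal 4 gave 0 with no replicate block (577) and 1, Fos, with a fixed block. Tinf2 kept its sign in all 33 alternatives run and passed in 12, with an adjusted p of 0.0859 with no replicate block and 0.457 with a fixed one. No named gene whose interval left out 0 changed sign. The blood gene list had no gene left under the stricter filter and gave no value there. With 4 arrays a group, p-values near the threshold turn on single arrays, and genes dim on most arrays are limited by signal over background.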
